A study of Rattus norvegicus with 14 samples.

Results

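Imprinted genes that govern growth were followed across 7 rat cell lines. They were 9 of the 35520 gene names on the array: H19, Igf2, Igf2r, Plagl1, Cdkn1c, Dlk1, Peg3, Mest and Grb10. All array probes assigned to them were taken, which gave 17 of the 41012 non-control probes on the array. Of these, 12 carried the gene's symbol as their gene name, 1 was assigned to Mest by the symbol in its description, and 4 were assigned to Peg3 by the full name "paternally expressed 3" in theirs. A probe was tested if 1 or more lines had it well above background on both of their arrays. This kept 29300 probes in all and 16 of the 17, covering 8 genes, and left out the Mest probe.

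The cells were hypoblast stem cells (hypoSC), which are rat lines derived under the culture condition of multipotent adult progenitor cells (MAPC), and a mesenchymal line. The blastocyst lines were Fi1 (male, Fischer), Fi2 (female, Fischer) and Wk8 (female, Wistar-Kyoto). The bone marrow lines were CL19 (female), 3C3 (male) and RMAPC-1 (male), all Fischer, and the mesenchymal control was RClone-2 (male, Fischer). Each line was hybridised to 2 one-colour arrays, A and B, from 1 µg of total RNA, 14 arrays in all. Nothing in the labels says whether arrays A and B came from separate cultures, so each line counted once: 3 from blastocysts, 3 from bone marrow and the mesenchymal one. P-values therefore measure the spread between these lines, and the mesenchymal line was assumed to vary like the others. In such bulk RNA, fewer cells that express a gene and less of its RNA per cell cannot be told apart.

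Imprinted genes are expressed from the maternal or the paternal copy only, according to DNA methylation set in the egg or sperm. In mouse, H19, Igf2r, Cdkn1c and Grb10 are expressed mainly from the maternal copy and Igf2, Plagl1, Dlk1, Peg3 and Mest from the paternal copy, with exceptions in some tissues. Several paternally expressed members promote fetal and placental growth and several maternally expressed ones restrain it, Igf2 and its clearance receptor Igf2r being the classic pair. The extraembryonic tissues, to which the hypoblast contributes, are among those where imprinted genes are most active.

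The probes on which the results turn are shown because they fix which stretch of each RNA was measured. Each probe had 60 bases. The H19 probe is given whole, since H19 RNA is not translated, and the first 30 bases of the others are given, all 5′ to 3′ as on the array. They read as follows.
H19: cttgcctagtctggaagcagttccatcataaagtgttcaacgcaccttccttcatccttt
Plagl1: tgaagactctgtattccatttttgagattt
Cdkn1c probe 1: ctgtgcaatgtattgagaacactctgtacc
Cdkn1c probe 2: aatggttgttgagtaaaagcccccacacat
Cdkn1c probe 3: ccagcctctctcggggattccaggacgtcc
Cdkn1c probe 4: agaactgcgcaggagaacaaggcgtcgaac
Igf2: ttctggcaaaatccaaagcttgggttttgt
Igf2r: ttagcattgtaattctctccccctatttat
Grb10 probe 1: gactctggttcacaattttgtacgtagctg
Grb10 probe 2: gtgtcaaccgcagttgacaccaagcatgtt
Grb10 probe 3: gcttcaagtcctaatgaacaacgatattaa
The array files placed them on the rat genome build rn4. The H19 probe lay at chr1:202822987-202823046 and the Igf2 probe at chr1:202906641-202906700, both on the minus strand and 83.6 kb apart. The 4 Cdkn1c probes lay on the same strand at chr1:203835188-203835213 (probe 1, of which 26 bases were placed), chr1:203835341-203835400 (probe 2), chr1:203836692-203836751 (probe 3) and chr1:203836064-203836123 (probe 4). The Igf2r probe, at chr1:42340766-42340825, and the Plagl1 probe, at chr1:7921813-7921873, were on the plus strand. The Grb10 probes lay on the minus strand of chromosome 14, at chr14:92815584-92815643, chr14:92817041-92817100 and chr14:92853679-92853738. Probes of a gene are numbered from the brightest to the dimmest. Whether each lies in an exon or a UTR of the rn4 annotation was not analysed here.

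H19 RNA is also the precursor of the microRNA miR-675, which lies within the gene. Its mature arms (RefSeq, GRCr8) are shown with the seed, bases 2 to 8, in capitals, because H19 is their precursor. The H19 probe does not measure the miRNAs themselves.
rno-miR-675-5p: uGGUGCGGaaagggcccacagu
rno-miR-675-3p: uGUAUGCCcuaaccgcucagu
The seeds of the arms differ.

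Levels are given as the log2 signal minus that of the array's 75th percentile, so that 0 is the signal below which 75% of an array's non-control probes lie, and a difference of 1 is 2-fold. The 75th percentile signal was 746 to 891 on arrays of blastocyst lines, 559 to 660.1 for bone marrow lines, and 599 and 631 for RClone-2. The cells carried the markers of their labels: all 8 primitive endoderm markers tested were well above background on the 12 arrays of the stem cell lines, with summed levels of 276 to 420.4 times the 75th percentile signal, against 2.71 and 3.03 on the arrays of RClone-2. The 9 mesenchymal markers summed to 0.657 to 1.40 on the stem cell arrays and to 521 and 459 on those of RClone-2, and Prrx1, Spp1 and Thy1 were not above background on any stem cell array. Arrays A and B of RMAPC-1 stood apart from each other. Of all probes tested 16.6% differed by over 2-fold between them, against 3.21% for Fi1, 4.36% for Fi2, 4.43% for Wk8, 3.17% for CL19, 6.33% for 3C3 and 3.06% for RClone-2. Results that involve the bone marrow lines are therefore given with and without each of these arrays where that matters.

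H19, a non-coding RNA expressed from the maternal copy, was high in all bone marrow lines and lower in all blastocyst lines. Its level was 2.76 and 3.84 on arrays A and B of Fi1, 4.25 and 4.22 in Fi2, and 0.16 and 1.85 in Wk8, against 6.60 and 7.11 in CL19, 7.56 and 6.83 in 3C3, and 6.65 and 7.81 in RMAPC-1. The groups did not overlap on any array, and Wk8, the line of another strain, was the lowest of the blastocyst lines. The mean was 2.85 ± 1.66 in blastocyst lines and 7.09 ± 0.21 in bone marrow lines (SD, n = 3 lines each), a difference of -4.25 ± 0.80 (SE), or 19-fold lower (limma, adjusted p = 0.0153). The spread was thus between the blastocyst lines, where neighbours in the order Fi2, Fi1, Wk8 did not overlap, while the arrays of the 3 bone marrow lines did. H19 fell without either RMAPC-1 array (adjusted p = 0.0221 and 0.0177 in limma), but did not pass without that whole line (-4.18, 0.0541) or without 3C3 (-4.20, 0.0548).

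Markers of endoderm types differed between the origins too. The visceral endoderm markers summed to 127 to 194 times the 75th percentile signal on blastocyst arrays and 281 to 389 on bone marrow arrays, and 3 of 9 were lower in blastocyst lines and none higher. Of the 11 parietal endoderm markers 5 were higher and none lower, with sums of 905 to 1233 on blastocyst arrays and 680.1 to 939.8 on bone marrow arrays. Of 8 listed pluripotency markers 2 were tested, Pou5f1 and Klf4. Both were lower, with sums of 11 to 13.7 on blastocyst arrays and 24.5 to 34.2 on bone marrow arrays. RClone-2 had sums of 32.1 and 26.6, within the bone marrow range, although Pou5f1 was not above background on its arrays. There the sum came from Klf4, so a high sum alone does not mark pluripotent cells. Over all probes 23.3% were lower in blastocyst lines and 9.13% higher, a split that moved with the scaling as given below. The visceral share was thus not far from that of all probes. With the pair of slides as a block no marker of these lists passed, nor did any other probe. The part of these markers in the differences between the origins was not tested.

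Igf2, the fetal growth factor next to H19, showed no such separation. The Igf2 level was -2.50 and -2.18 in Fi1, -0.55 and -0.44 in Fi2, and -3.22 and -2.86 in Wk8, against -2.08 and -2.03 in CL19, -0.34 and -0.29 in 3C3, and -2.56 and 2.60 on arrays A and B of RMAPC-1. The origins overlapped and within each of them the lines spread widely, Fi2 and 3C3 being high. Lines with a close H19 level thus differed in Igf2, as CL19 and 3C3 did, and array B of RMAPC-1 was the highest of all 14. The difference, -1.18 ± 0.82, did not pass (adjusted p = 0.305, limma), with a 95% interval of -3.18 to 0.82, and it was 0.10 with the pair of slides as a block.

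Igf2r, the receptor that takes up IGF2 and delivers it to lysosomes, was higher on every blastocyst array than on any bone marrow array, by a small margin. Its level was 5.12 and 5.01 in Fi1, 4.49 and 4.29 in Fi2, and 5.01 and 5.25 in Wk8, against 3.62 and 3.08 in CL19, 4.0 and 4.22 in 3C3, and -0.13 and 4.17 on arrays A and B of RMAPC-1. Array A of RMAPC-1 lay far below the other bone marrow arrays. With it the difference was 1.70 ± 0.54 (adjusted p = 0.0580, limma), and without it 0.98 (0.0713), and neither passed. Without array B it was 2.41 (0.134). Igf2r did pass without 3C3 (2.18, 0.0488), with quantile normalization (1.95, 0.0466), without scaling (2.18, 0.0288) and with a trended prior (0.0460).

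**Figure D1:**
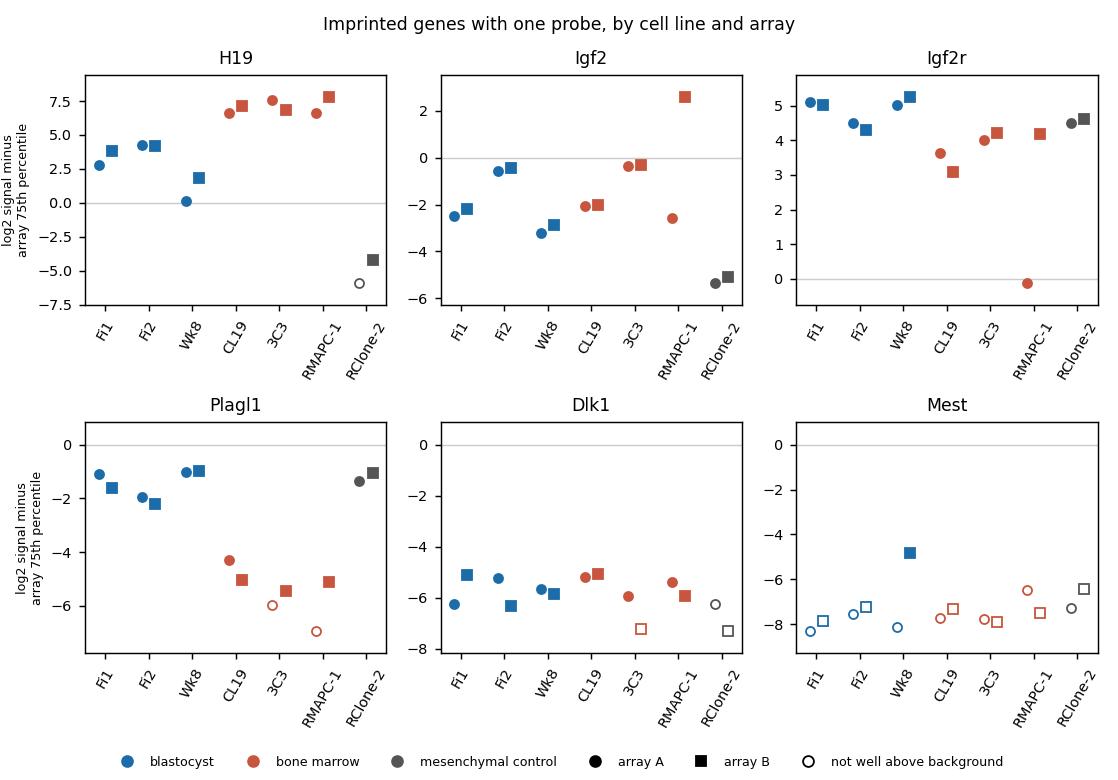
Levels of the 6 genes with 1 probe (log2 signal minus the array's 75th percentile, y axis) on arrays A and B of each line (x axis), with open symbols where the probe was not well above background. H19 is between 0.16 and 4.25 on blastocyst arrays, below all bone marrow arrays, and Plagl1 runs the other way, while array A of RMAPC-1 is alone near 0 for Igf2r and array B is alone at 2.60 for Igf2.

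Plagl1, a zinc finger transcription factor that restrains the cell cycle and regulates a network of imprinted genes in mouse, had the smallest adjusted p of the 16 probes between the origins. The Plagl1 level was -1.11 and -1.61 in Fi1, -1.94 and -2.20 in Fi2, and -1.01 and -0.97 in Wk8, against -4.29 and -5.04 in CL19, -5.99 and -5.46 in 3C3, and -6.93 and -5.11 in RMAPC-1. The groups were far apart, and array A of 3C3 and array A of RMAPC-1 were not well above background. Blastocyst lines averaged -1.47 ± 0.55 and bone marrow lines -5.47 ± 0.71 (SD, n = 3 lines each), so the measured difference of Plagl1 was 4.0 ± 0.43 (adjusted p = 0.00561, limma), with 4 of the 6 bone marrow arrays above background. This call remained without array A or B of RMAPC-1 (3.69, 0.00803, and 4.30, 0.00992) and without that line (3.72, 0.0282).

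Cdkn1c encodes p57, an inhibitor of cyclin-dependent kinases that is expressed from the maternal copy. All 4 of its probes were high in every stem cell line, and higher on each blastocyst array than on any bone marrow array. Probe 1 read 8.53 and 8.25 in Fi1, 8.01 and 8.19 in Fi2, and 8.62 and 8.65 in Wk8, against 7.14 and 6.59 in CL19, 6.70 and 7.54 in 3C3, and 1.39 and 7.42 on arrays A and B of RMAPC-1. The other 3 probes gave the same picture, array A of RMAPC-1 lying at 0.05 to 0.68 and array B at 6.01 to 6.67. The blastocyst lines were close to one another (SD 0.24 to 0.30 over the 4 probes), and the bone marrow lines were not (1.5 to 1.62).

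The difference in Cdkn1c between blastocyst and bone marrow lines was 2.65 ± 0.78 for probe 2 and 2.46 ± 0.73 for probe 4, which passed (adjusted p = 0.0461 and 0.0481, limma), and 2.25 ± 0.72 for probe 1 and 2.50 ± 0.76 for probe 3, which did not (0.0590 and 0.0516). Array A of RMAPC-1 set the size of all 4. Without it the differences were 1.24, 1.65, 1.48 and 1.46 for probes 1 to 4, and all passed (adjusted p = 0.0189, 0.0132, 0.0116 and 0.0133), and without array B they were 3.25 to 3.65 and none did (0.122 to 0.148). The calls of probes 2 and 4 were also lost on leaving out any of Fi1, Fi2, Wk8, CL19 or 3C3 (adjusted p = 0.0509 to 0.112), and all 4 probes passed without RMAPC-1 (1.38 to 1.73, 0.0288 to 0.0328).

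Grb10, an adaptor that binds the insulin and IGF1 receptors and damps their signal, was low in the stem cell lines except on 1 array. Probe 1 read -1.30 and -1.51 in Fi1, -1.08 and -1.62 in Fi2, and -1.39 and -1.41 in Wk8, against -2.69 and -2.57 in CL19, -2.48 and -3.06 in 3C3, and -2.25 and 2.96 on arrays A and B of RMAPC-1. Apart from array B of RMAPC-1, the blastocyst arrays were thus all above the bone marrow arrays. Over all arrays the difference was 0.29 ± 0.84 (adjusted p = 0.807, limma; 95% interval -1.75 to 2.34), and without array B it was 1.16 and passed (0.00987), as did probes 2 and 3 (0.82, 0.0462, and 1.94, 0.0230), while without array A it was -0.57 (0.811). Probes 2 and 3 were well above background on 4 of 6 blastocyst arrays and 2 of 6 bone marrow arrays each, and array B of RMAPC-1 was the highest of these at -1.13 and -1.79.

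The levels of Peg3, a zinc finger protein of the paternal copy that acts in growth and maternal behaviour in mouse, overlapped between the origins. Probe 1 read 4.05 and 3.97 in Fi1, 3.09 and 3.31 in Fi2, and 3.18 and 3.56 in Wk8, against 3.78 and 4.14 in CL19, 4.41 and 4.25 in 3C3, and 3.33 and 3.90 in RMAPC-1. The groups overlapped on all 4 probes, with differences from -0.70 to -0.08 and adjusted p from 0.183 to 0.862 (limma). For probe 1 the 95% interval was -1.12 to 0.25. The arrays of RMAPC-1 were within 0.60 of each other on every Peg3 probe.

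**Figure D2:**
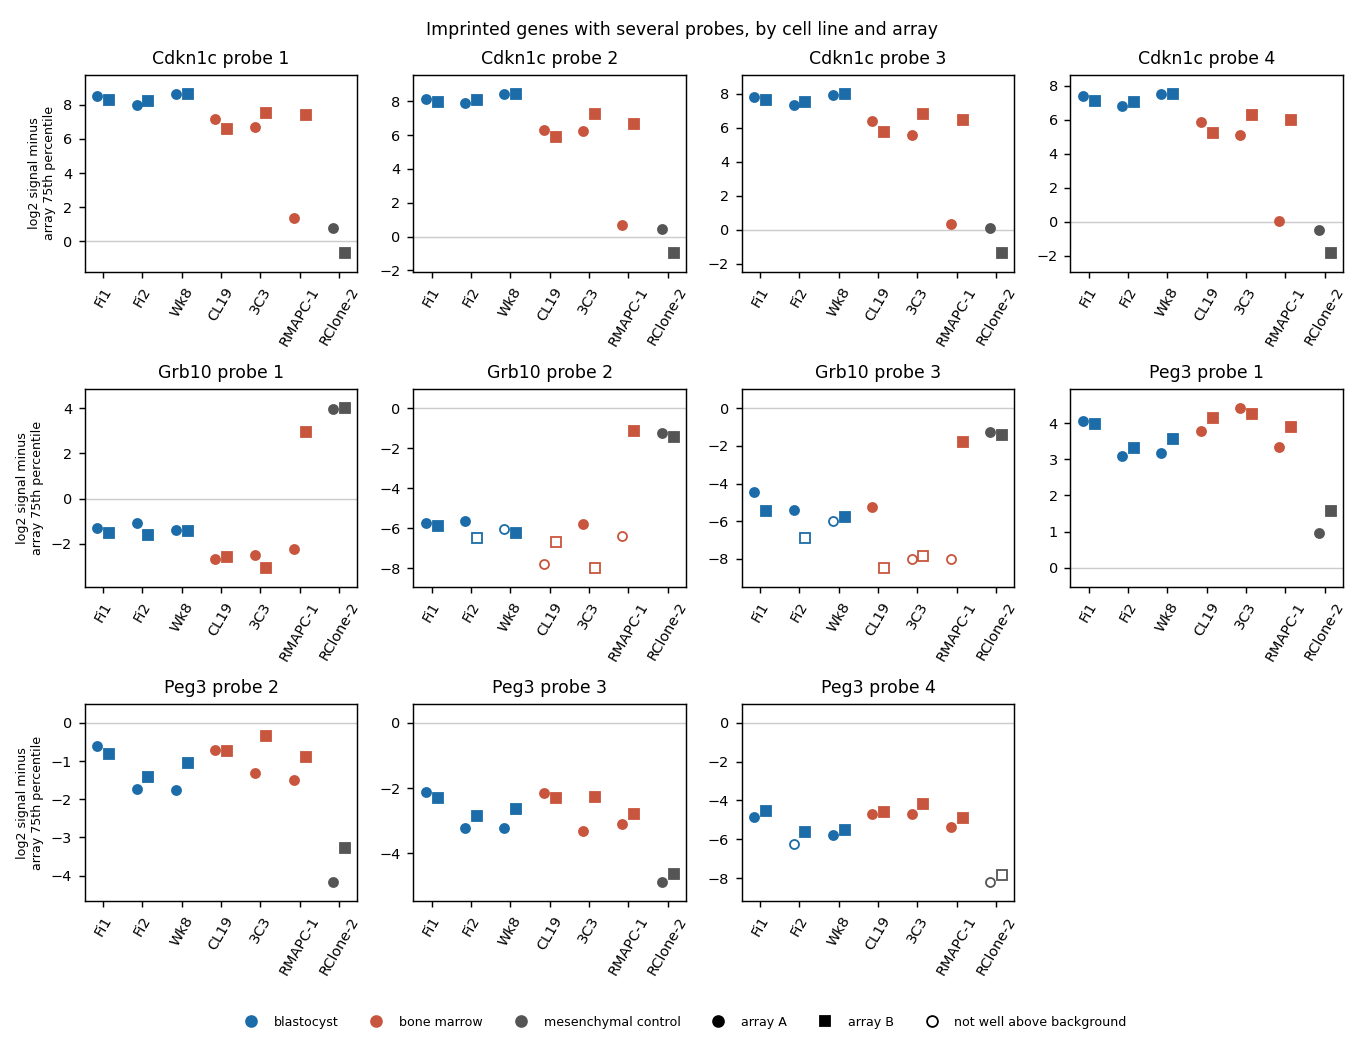
Levels of the probes of Cdkn1c, Grb10 and Peg3 (log2 signal minus the array's 75th percentile, y axis) on arrays A and B of each line (x axis), with open symbols where not well above background. All 4 Cdkn1c probes drop to between 0.05 and 1.39 on array A of RMAPC-1, all 3 Grb10 probes are raised on its array B, and the Peg3 probes differ by at most 0.60 between these arrays.

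Dlk1, a membrane ligand that holds back adipocyte differentiation, was near the background in all lines, at -6.33 to -5.11 on blastocyst arrays and -7.23 to -5.08 on bone marrow arrays. Their difference was 0.05 ± 0.36 (adjusted p = 0.924, limma), with a 95% interval of -0.83 to 0.93. The Mest probe, for a hydrolase-like protein of the paternal copy, was above background on 1 of the 14 arrays (Wk8 B, -4.83), and the rest lay between -8.30 and -6.44. It came from a transcript cluster without a genome position, and nothing is read from it about the Mest gene.

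Of the 16 tested probes, 4 were thus called between blastocyst and bone marrow lines. Of all 29300 probes tested 32.4% were called, so the members' share, 4 of 16, was near the background. Of the 4, 3 were higher (Plagl1 and 2 of Cdkn1c) and 1 was lower (H19), where 9.13% of all probes were higher and 23.3% lower. The split over all probes moved with the scaling: 28.2% of the calls were on the higher side, against 40.7% with normexp, 43.3% with quantile normalization, 44.3% with median centring, 46.0% with the percentile over commonly detected probes, 84.7% without scaling and 16.0% with spike-in scaling. The median difference was 0.17 over the 16 probes and -0.20 over all. Without array A of RMAPC-1 6 of the 16 were called, and 19.1% of all probes. The 6 were H19, Plagl1 and the 4 Cdkn1c probes, which read the same RNA. Without array B, H19, Plagl1 and the Grb10 probes were called, and 9807 of all 29300 probes. By the brightest probe of each gene, 2 of 8 members were higher and 1 lower without array A, and likewise without array B. CL19 was hybridised on the slides of the blastocyst lines (1 and 3), whereas RClone-2, 3C3 and RMAPC-1 were on slides 2 and 4. With the pair of slides as a block the difference was -4.01 for H19 (adjusted p = 0.145, limma) and 3.19 for Plagl1 (0.0746), and for Cdkn1c probes 2 and 4 it was 2.06 and 1.66 (0.315 and 0.355). None of all 29300 probes passed in that fit, where 7577 had an unadjusted p under 0.05. Within slides 1 and 3, with CL19 as the bone marrow line, the differences were the same and none of all 29300 probes passed (6180 had an unadjusted p under 0.05), the adjusted p of H19 being 0.235 and that of Plagl1 0.178. With each slide as a block over single arrays, H19 (0.0355) and Plagl1 (0.00545) passed.

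**Figure D3:**
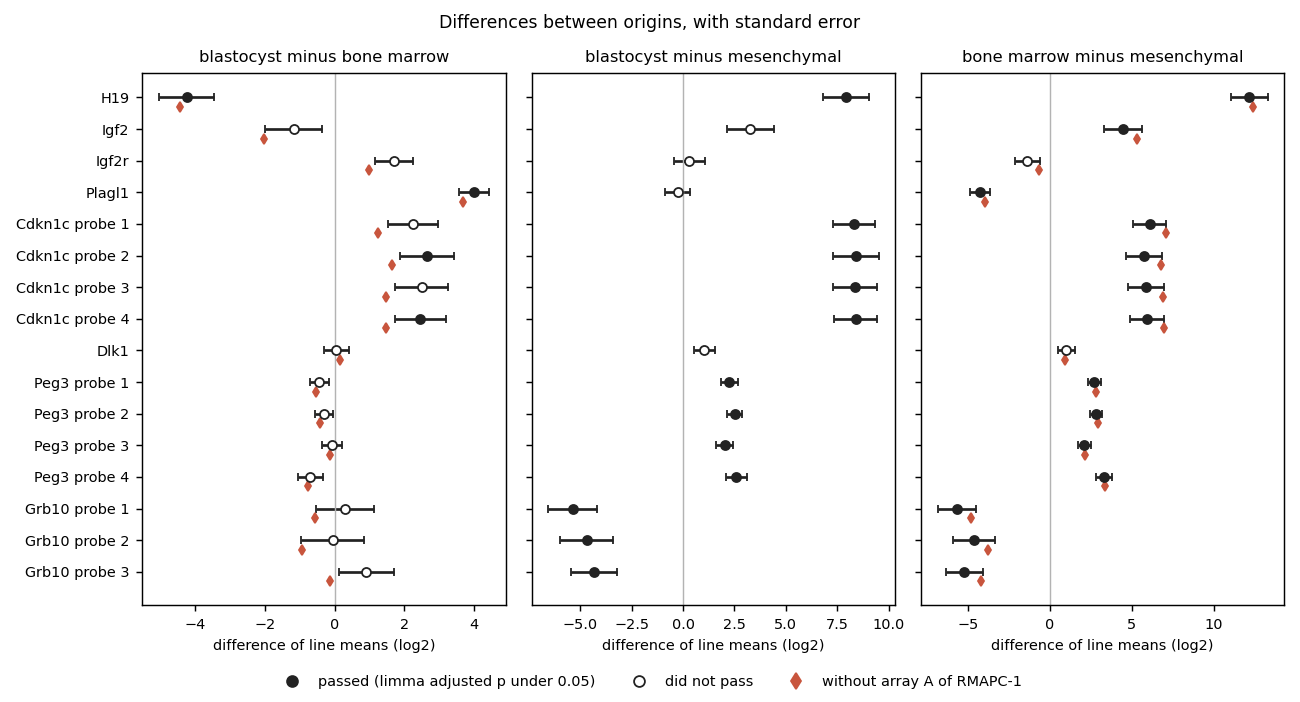
Differences of line means (log2, x axis) for the 16 tested probes in the 3 comparisons, with their standard errors, filled where the adjusted p was under 0.05. Diamonds give the value without array A of RMAPC-1 in the comparisons with bone marrow lines: between blastocyst and bone marrow lines the Cdkn1c differences shrink to between 1.24 and 1.65, while H19 moves from -4.25 to -4.44 and Plagl1 to 3.69.

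Against the mesenchymal line the stem cell lines differed in more members, as they did in more of all probes (48.7% and 46.8%, against 32.4% between the origins). RClone-2 had an H19 level of -5.92 and -4.21, not well above background on array A, and an Igf2 level of -5.36 and -5.10. Cdkn1c probe 1 read 0.80 and -0.69 there, and Peg3 probe 1 0.97 and 1.58. All of these lay below every blastocyst and bone marrow array, although array A of RMAPC-1, at 1.39, came close to RClone-2 on Cdkn1c probe 1.

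In blastocyst lines versus RClone-2, 12 of the 16 probes were called, 9 higher and 3 lower, where 48.7% of all probes were called, 22.9% higher and 25.8% lower. Several probes read the same RNA: by the brightest probe of each gene, 3 of 8 members were higher and 1 lower, near the share over all probes. Of all calls 46.9% were thus higher, against 69.2% without scaling and 22.5% with spike-in scaling. H19, above background on 1 of the 2 arrays of RClone-2, was 7.91 ± 1.12 higher (adjusted p = 0.00239, limma), the 4 Cdkn1c probes 8.32 to 8.41 higher (0.00134 to 0.00171) and the Peg3 probes 2.03 to 2.59 higher (0.00286 to 0.00969). Peg3 probe 4 was not well above background in RClone-2 and was at least 1.86-fold higher. Grb10 fell on all 3 probes, with differences of -5.38, -4.68 and -4.31 (adjusted p = 0.0124, 0.0266 and 0.0223), and probes 2 and 3 were above background on 4 of 6 blastocyst arrays. The bone marrow lines enter the pooled spread, so that with the same differences these 3 calls were lost without array A of RMAPC-1 (0.0939 to 0.167) and passed without array B (2.1e-05 to 0.0026) or the line (4.8e-05 to 0.0055). Grb10 probe 2 also lost its call without Fi1 (0.0542) or Fi2 (0.0574), and probe 3 without Fi2 (0.0526). RClone-2 and the blastocyst lines were on different slides. With the pair of slides as a block H19 (8.27, 0.0327), the Cdkn1c probes (7.08 to 7.53, 0.0290 to 0.0352) and Peg3 probe 2 (2.21, 0.0498) passed. Peg3 probes 1, 3 and 4 (2.27, 1.38 and 2.46; 0.0607, 0.129 and 0.0909) and the Grb10 probes (-3.95, -2.77 and -3.87; 0.157, 0.290 and 0.182) did not. With normexp Peg3 probes 3 and 4 were 0.88 and 0.41 higher and did not pass (0.0813 and 0.547). Igf2 did not pass (3.27 ± 1.16, 0.0586), nor did Igf2r (0.31 ± 0.77, 0.758), Plagl1 (-0.26 ± 0.61, 0.743) or Dlk1 (1.04 ± 0.51, 0.140).

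In bone marrow lines versus RClone-2, 14 of the 16 were called, 10 higher and 4 lower, where 46.8% of all probes were called, 27.0% higher and 19.8% lower. By the brightest probe of each gene, 4 of 8 members were higher and 2 lower. Of all calls 57.7% were thus higher, against 36.2% with spike-in scaling. The comparison shares RClone-2 with the one before. H19 was 12.16 ± 1.12 higher (adjusted p = 4.26e-04, limma), with the same limit in RClone-2, Cdkn1c 5.76 to 6.07 (0.00457 to 0.00735), Igf2 4.45 ± 1.16 (0.0226) and Peg3 2.10 to 3.29 (0.00183 to 0.00858). Peg3 probe 4 was at least 3.02-fold higher. Plagl1 fell by 4.26 ± 0.61 (0.00255), and the Grb10 probes fell with differences of -5.67, -4.63 and -5.22 (0.0103 to 0.0285), probes 2 and 3 being above background on 2 of 6 bone marrow arrays. Igf2r (-1.39 ± 0.77, 0.187) and Dlk1 (0.99 ± 0.51, 0.162) did not pass. In RClone-2 Plagl1 was at -1.37 and -1.05, within the range of the blastocyst arrays.

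Some of these calls moved with the arrays of RMAPC-1. Igf2 lost its call without array A (5.31, 0.0597), without array B (3.59, 0.0501) without the line (4.05, 0.0531) or without 3C3 (4.22, 0.0572). Grb10 was at -4.80, -3.76 and -4.19 without array A, and its 3 calls were lost (0.131 to 0.240), but all 3 passed without array B (-6.54, -5.50 and -6.26; 1.0e-05 to 6.0e-04) and without the line (-6.69, -5.73 and -6.06; 4.7e-05 to 0.00250). Cdkn1c was at 4.76 to 5.07 without array B, and its 4 calls were lost (0.104 to 0.130), but all 4 passed without array A (6.76 to 7.08; 1.7e-05 to 3.6e-05) and without the line (6.68 to 6.93; 1.2e-04 to 2.6e-04). Grb10 probe 2 also lost its call without CL19 (0.0569) or 3C3 (0.0661). With normexp background correction Igf2 was 2.62 higher (0.0769), Peg3 probes 3 and 4 0.85 and 0.55 (0.0849 and 0.381), and Grb10 probe 2 was at -1.74 (0.0781), and none of these passed. Within slides 2 and 4 alone, H19 (12.28, adjusted p = 0.00300), Igf2 (5.09, 0.00452) and Plagl1 (-4.66, 0.00470) still passed, and the Cdkn1c and Grb10 probes did not (0.0646 to 0.0974, and 0.15 for Grb10 probe 2). Peg3 probe 1 passed there too (2.70, 0.0284).

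The arrays of RMAPC-1 differed in the members more than in the array as a whole. Array B had the higher level, by over 2-fold, for 11 of the 16 probes, and array A for none, where 16.6% of all probes differed by over 2-fold in either direction. The median size of the difference was 4.72 over the members and 0.36 over all probes. Several of the 11 read the same RNA: by the brightest probe of each gene, array B was over 2-fold higher for 6 of 8. In the other lines 1 to 6 of the 16 differed by over 2-fold, at most by 3.23 (Grb10 probe 3 in CL19, near background). There too members exceeded all probes: 6 of 16 in RClone-2 (3.06% of all probes) and 5 of 16 in 3C3 (6.33%). In all 7 lines the median size was larger for members than for all probes. On array A relative to array B the differences were -6.10 to -5.97 for the Cdkn1c probes, -6.20 to -5.21 for Grb10, -5.16 for Igf2 and -4.29 for Igf2r. They were -1.82 for Plagl1 and -1.16 for H19, while Dlk1 (0.54) and Peg3 (-0.60 to -0.29) were within 2-fold. H19 differed as much between the arrays of RClone-2 (-1.70) and Wk8 (-1.69).

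The array that departed from the other bone marrow lines was not the same one for each gene. Cdkn1c and Igf2r on array B were within the range of CL19 and 3C3 on all their probes, and array A was below it. For Igf2 and Grb10 it was array B that stood far outside: Igf2 was at 2.60, where CL19 and 3C3 spanned -2.08 to -0.29, and Grb10 probe 1 was at 2.96, where they spanned -3.06 to -2.48. Array A was a little outside these ranges too, at -2.56 for Igf2 and -2.25 for Grb10 probe 1. Markers of other cell types differed between these arrays too. Over 2-fold apart were 3 of 9 mesenchymal markers (all higher on array A), 2 of 6 trophoblast and 2 of 3 haematopoietic markers (all higher on array B), 4 of 11 parietal endoderm markers (1 higher on array A, 3 on array B), 2 of 9 visceral endoderm markers (1 each way) and 1 of 8 primitive endoderm markers (higher on array A). Of all probes 16.6% were. Among these markers Prrx1 and Spi1 were not above background on either array, nor Pdgfrb on array B or Apoa1 on array A. The trophoblast marker Ascl2 is also among the imprinted genes below. Summed levels on arrays A and B were 1.40 and 1.04 times the 75th percentile signal for the mesenchymal list, 2.26 and 2.21 for the trophoblast list and 0.547 and 0.539 for the haematopoietic one. They were 788 and 680.1 for the parietal, 349 and 335 for the visceral and 339 and 276 for the primitive endoderm list. The labels give both arrays as the same line, sex, strain and tissue, and the part of these markers or of culture in the result was not tested.

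**Figure D4:**
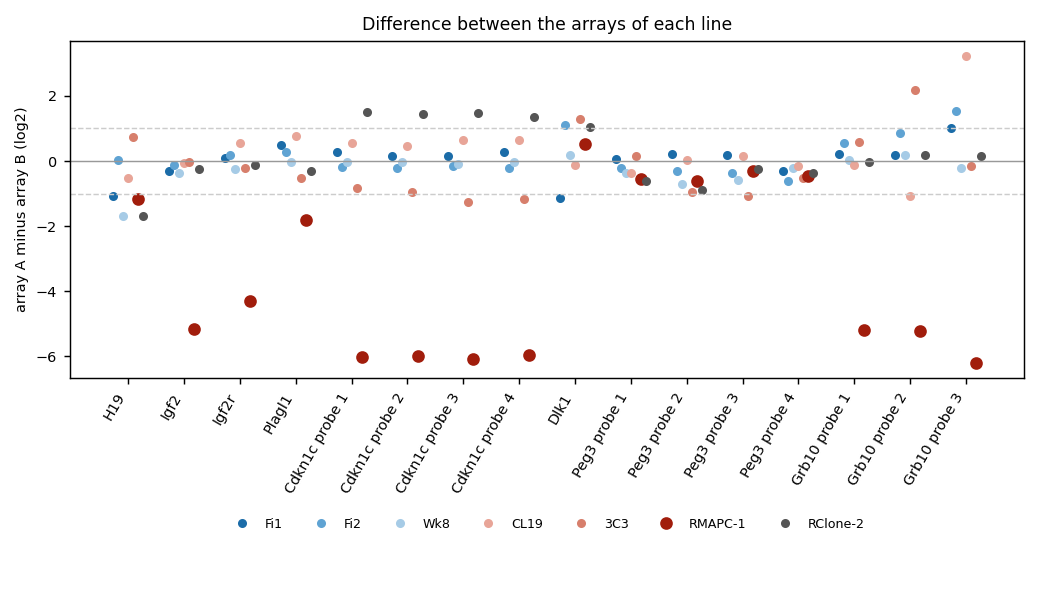
Array A minus array B (log2, y axis) for each tested probe (x axis) in each of the 7 lines, with dashed lines at a 2-fold difference. RMAPC-1 lies between -6.20 and -4.29 for Igf2, Igf2r, Cdkn1c and Grb10 and with the other lines for Dlk1 and Peg3.

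Other imprinted genes were set beside the members on these arrays. Counting the brightest probe of each gene, and grouping genes by the copy expressed in mouse, all 4 maternally expressed members and 6 of the 12 other maternally expressed genes tested were higher by over 2-fold on array B, and 1 was on array A. H19 and Ppp1r9a are in this count though they differed more within another line (up to 1.70 and 2.31) than here (-1.16 and -1.73). Ppp1r9a was not above background on array A. Tssc4, Ascl2, Slc22a18 and Phlda2, also counted, lie around Cdkn1c on chromosome 1, so these genes need not be independent. Of the paternally expressed genes, 2 of the 4 members and none of the 16 others had array B over 2-fold above array A, and 2 of the others were the other way. Over all probes 7.69% were over 2-fold higher on array B and 8.90% on array A, with a median of 0.14. The median of array A minus array B was -1.45 over the 16 maternally expressed genes and 0.48 over the 20 paternally expressed ones, and without the members it was -0.92 over 12 and 0.50 over 16. These lists were drawn up with earlier results of these data known.

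The listed imprinted genes on chromosome 1 near H19 and Cdkn1c did not all move together. These neighbours were taken by position from the listed imprinted genes after their values were seen. Tssc4, 523 kb from the H19 probe, was at 0.69 on array A and 4.70 on array B of RMAPC-1, a difference of -4.01. Cdkn1c lay 1012 kb from H19, and beyond it Slc22a18, an organic cation transporter-like protein (1051 kb), and Phlda2, a restraint on placental growth (1056 kb), had differences of -3.11 and -3.26. Ascl2, a trophoblast transcription factor, had -1.13. Kcnq1, a potassium channel (0.03), Nap1l4 (0.12), Osbpl5 (-0.71) and Ins2 (0.49) were within 2-fold. In the other 6 lines the arrays differed by at most 0.23 for Tssc4, 0.46 for Slc22a18 and 0.64 for Phlda2.

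**Figure D5:**
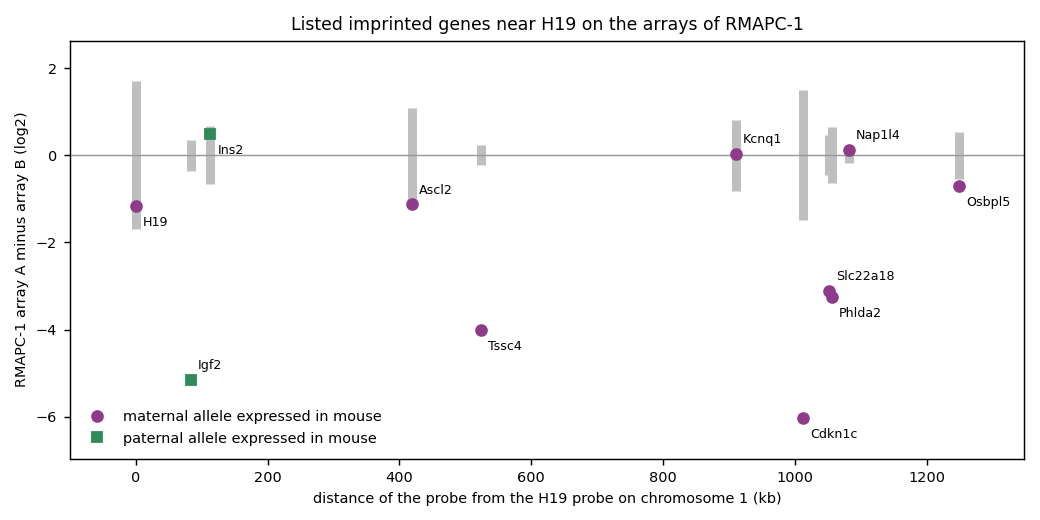
Array A minus array B of RMAPC-1 (log2, y axis) for the listed imprinted genes near H19, by distance of the probe from the H19 probe (kb, x axis). Grey bars span the largest difference between arrays in any other line, and Igf2, Tssc4, Cdkn1c, Slc22a18 and Phlda2 lie at -6.03 to -3.11, far outside theirs.

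Between blastocyst and bone marrow lines, 3 of the 12 other maternally expressed genes tested were higher and 1 lower, and 1 of the 16 other paternally expressed genes was higher and 2 lower, in limma. Over all probes 32.4% were called, 9.13% higher and 23.3% lower. The maternally expressed genes were thus called about as often as all probes, and the paternally expressed ones less often. Kcnq1 was 2.53 ± 0.27 higher (adjusted p = 0.00554), Atp10a, a phospholipid flippase, 1.09 ± 0.32 (0.0446) and Osbpl5, a lipid transfer protein, 0.85 ± 0.14 (0.0117), while Klf14 fell by 0.62 ± 0.13 (0.0201). Klf14 was above background on 2 of 6 blastocyst and 3 of 6 bone marrow arrays, and Fi2 had a value on array B alone, so it was close to background throughout. Mcts2 fell by 1.08 ± 0.13 (0.00652) and Rasgrf1, a Ras exchange factor, by 0.77 ± 0.11 (0.00874), and Peg12 was 0.45 ± 0.12 higher (0.0372). Without array A of RMAPC-1 Atp10a and Peg12 did not pass (0.202 and 0.0809). Median differences were 0.80 over the maternally and -0.05 over the paternally expressed genes, against -0.20 over all probes.

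Of 12 genes tested that act with Igf2 in the insulin-like growth factor pathway, 2 were higher and 3 lower in blastocyst than in bone marrow lines, not far from the 32.4% called over all probes. Their median difference was 0.28. Igf1, the growth factor related to Igf2, fell by 2.87 ± 0.32 (adjusted p = 0.00585, limma), and Igf1r, the receptor through which both signal, was 1.29 ± 0.18 higher (0.00865). Igfbp1, which binds IGFs outside the cell, fell by 0.82 ± 0.12 (0.00965), and Igf2bp2, which binds Igf2 mRNA, by 0.79 ± 0.19 (0.0278). The fifth to pass was Igf2bp3 (0.55 ± 0.16, 0.0473), which also binds Igf2 mRNA and is named beyond the rule. Without array A of RMAPC-1 it did not pass (0.39, 0.325). Against RClone-2, 5 were higher and 3 lower in blastocyst lines, and 7 higher and 3 lower in bone marrow lines.

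Of 13 genes that set or keep imprints and DNA methylation, 6 fell in blastocyst versus bone marrow lines and none was higher, where over all probes 23.3% were lower and 9.13% higher, a split that moved with the scaling as given above. Dppa3, which protects imprints in the early embryo, fell by 4.19 ± 0.62 (adjusted p = 0.00943, limma), and Dnmt3l, a cofactor of the de novo methyltransferases, by 3.00 ± 0.90 (0.0484). The de novo methyltransferases Dnmt3a and Dnmt3b fell by 2.37 ± 0.44 (0.0153) and 1.39 ± 0.34 (0.0280). Dnmt1, which copies methylation at replication, differed by 0.01 ± 0.13 (0.967), and was chosen as the maintenance enzyme, outside the rule for names. Without array A of RMAPC-1 5 of the 13 fell, Dnmt3l no longer among them (0.0801). With the pair of slides as a block no gene of the imprinted, growth factor or methylation lists passed. Against RClone-2, 8 of 13 were higher in blastocyst lines and 8 of 13 in bone marrow lines, and none was lower in either, where 22.9% and 27.0% of all probes were higher. On RMAPC-1 3 of the 13 were over 2-fold higher on array A and 0 on array B. Over all probes 8.90% were so on array A and 7.69% on array B. Among the 3 were Dppa3 (1.73 on array A, -0.27 on array B) and Dnmt3l (7.24 and 5.36), while Dnmt3b was lower on array A (3.07 and 3.82). The median difference over the 13 genes between blastocyst and bone marrow lines was -0.39.

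For each member, the genes whose level was most alike over the 14 arrays are given as a description, since the 2 arrays of a line are not independent. H19 was closest to Slc7a3 (Pearson r = 0.991), Nrg2 (0.990) and Amn (0.988). Cdkn1c was closest to Six4 (0.992), Npr1 (0.977) and Fgfbp3 (0.974), and Plagl1 to Nipal2 (0.986), Olfml2a (0.975) and Acadvl (0.974). Igf2r was closest to Tssc4, the gene near Cdkn1c described above (0.946), then to Uba7 (0.915) and Ulk4 (0.909). Peg3 was closest to Pan3 (0.977), its antisense RNA Apeg3 (0.969) and Angptl6 (0.969). The lists for Igf2 were Ipp (0.955), Hltf (0.948) and Nmt2 (0.947), for Grb10 Fam219b (0.975), Ndfip1 (0.974) and Cep83 (0.972), and for Dlk1, near background, Tbx21 (0.823), Jade1 (0.818) and Atoh7 (0.812).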

How the data were processed

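RNA of 7 rat lines was measured on 14 one-colour Agilent arrays. The deposited scanner files hold intensity values, made by the authors with Agilent Feature Extraction 10.7.3.1 per the submitters' processing notes; the deposited series table holds log2 values, which equalled the log2 processed signals of the scanner files in 43379 of 43379 rows (to 6 decimals), so it was not analysed separately. Outlier spots were left out, and spots of a probe averaged. Signals were log2-transformed and each array's 75th percentile subtracted. Kept probes had, in 1 or more lines, both arrays well above background; arrays A and B were averaged, and origins compared over 7 line means with limma 3.58.1 (R 4.3.3; 4 residual degrees of freedom), adjusted by Benjamini-Hochberg over 29300 probes at a threshold of 0.05. Bounds used the lowest signal well above background on each array. Of 41012 probes 20729 matched a RefSeq gene, and other names are those of the array files.

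On simulated data of the blastocyst and bone marrow comparison, the fit over 29300 probes recovered 29.9%, 67.2% and 90.9% of probes changed by 1, 2 and 4 on the log2 scale. Only 67, 67 and 66 probes were so changed, a far smaller share than the 32.4% called in the data. No slide effect was simulated, so these rates need not hold for the reported comparison. Precision is limited by how few lines there are. The members and gene lists were chosen with earlier results of these data known. Named were all member probes, up to 4 called genes of each other non-marker list with the largest difference between blastocyst and bone marrow lines, and the 3 genes most correlated with each member; neighbours of Cdkn1c were named after their values were seen.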

Additional observations from a re-analysis of the deposited data

Results flagged for a closer look

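Among the 16 tested probes and 2 origins of 6 arrays each, 7 of 32 groups had a sample far from the others by Dixon's test, and all 7 were arrays of RMAPC-1. Chance gives about 1 in 20 for independent samples. Here the 6 arrays were 3 lines with 2 arrays each, and several probes shared a gene. The count is therefore a description and not a test against chance. Array A was the lowest of the bone marrow arrays for Igf2r (-0.13, against 3.08 for the next) and for Cdkn1c probes 1 (1.39, against 6.59), 2 (0.68), 3 (0.33) and 4 (0.0452). Array B was the highest for Grb10 probes 1 (2.96, against -2.25 for the next) and 2 (-1.13). The 4 Cdkn1c probes read the same RNA and are not 4 independent events. No blastocyst array was so far from the others for any member.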

How the results depend on the processing

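The 30 member results that passed in the 3 comparisons kept their direction in all 724 alternatives run, and lost the call in 95, while 10 of them never lost it. Between blastocyst and bone marrow lines 4 member probes were called. The count was 2 with normexp, without a filter, with the brightest probe of each gene (of 8), with slide as a block over single arrays and with sex as a covariate. It was 7 with quantile normalization, without scaling and with a trended prior, and 0 with the pair of slides as a block or within slides 1 and 3. Leaving out 1 line gave 2 to 7. The replicate block, with the array letter as a term over single arrays, gave 2 called probes; the letters are balanced over lines and share only a name. For blastocyst lines versus RClone-2 the count was 12, 4 with the brightest probe (of 8) and 6 with the pair of slides as a block, and 10 to 13 on leaving out 1 line. For bone marrow lines versus RClone-2 it was 14, 6 with the brightest probe (of 8), 7 within slides 2 and 4, 9 without all B arrays or without array B of RMAPC-1, and 13 to 14 on leaving out 1 line. The counts of members over 2-fold apart between arrays A and B moved with normexp to 1 for Fi1, 5 for Fi2, 0 for CL19 and 2 for 3C3, and with quantile normalization to 1 for Fi2.

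All values that changed sign belong to results that did not pass as reported, and the cause was not tested. Of them Grb10 probe 2 then passed without array B of RMAPC-1 (adjusted p = 0.0462, limma) and without that line (1.04, 0.0393). With the slides as a block or within slides 1 and 3 they were 0.0959 for Igf2, -0.602 for Dlk1 and 1.22 for Grb10 probe 2. With normexp they were -0.0040 for Dlk1, 0.0242 for Peg3 probe 3 and -0.0944 for Grb10 probe 3. Without scaling they were 0.0412, 0.168 and 0.404 for Peg3 probes 1 to 3, 0.422 for Grb10 probe 2 and, against RClone-2, 0.183 for Plagl1. With the percentile taken over commonly detected probes Peg3 probe 3 was at 0.0683 and Grb10 probe 2 at 0.0865, and with median centring at 0.0443 and 0.0625. Quantile normalization gave 0.265 for Grb10 probe 2. Spike-in scaling gave -0.167 for Dlk1 and, against RClone-2, -0.298 for Igf2r in blastocyst lines. With sex as a covariate Dlk1 was at -0.0989 and Grb10 probe 2 at 0.311. Without A arrays Grb10 probes 1 and 3 were at -0.629 and -1.2e-04, and without array A of RMAPC-1 at -0.574 and -0.125. Without B arrays Dlk1 was at -0.212, Grb10 probe 2 at 0.842 and Plagl1 against RClone-2 at 0.0134, and without array B of RMAPC-1 Dlk1 was at -0.0380 and Grb10 probe 2 at 0.816. On leaving out 1 line the range was -0.347 to 0.379 for Dlk1, -0.334 to 0.142 for Peg3 probe 3, -0.251 to 1.31 and -0.695 to 1.04 for Grb10 probes 1 and 2, and -0.506 to 0.0326 for Plagl1 against RClone-2.

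The median of all probes between blastocyst and bone marrow lines was -0.197, against 0.282 without scaling and -0.416 with spike-in scaling. A fit to the deposited series table was not run, since its values equal the scanner signals and its rows could not be named. Counts of the other gene lists without an RMAPC-1 array or with the slide block were added after seeing the data. Signal over background limits Dlk1, Mest, Grb10 probes 2 and 3, Peg3 probe 4 and H19 in RClone-2, and Plagl1 in bone marrow lines, and slides and origins overlap in CL19 alone, so the comparison of origins within slides rests on that line.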
